A study of Mus musculus with 3 samples.

Results

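The genes described here are 49 mitosis and G2/M genes, out of 32287 features measured in single cells of the mouse retina. They were taken as a named list and found by symbol, and all 49 were present and reached the minimum of 50 UMIs (unique molecular identifiers, each standing for 1 captured transcript) over the 3 libraries. They encode proteins that act late in the cell cycle. The kinase CDK1 with a B-type cyclin starts mitosis, condensins and topoisomerase II shape the chromosomes, kinetochores join them to the spindle, Aurora kinases and the checkpoint control that attachment, the anaphase-promoting complex (APC/C) ends it by destroying its substrates, and a contractile ring then parts the daughter cells. Transcripts of most of these genes accumulate in G2 and M phase and are scarce in resting cells. Müller glia (MG), the main glia of the retina, rest in the adult mouse, so these genes are read there as a sign of cells in the cycle.

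Each group was 1 library of tdTomato+ cells, with 2 to 4 retinas pooled, from mice carrying Glast-CreERT2, which acts in MG after tamoxifen, and R26-CAG-LSL-Tdt, a Cre-dependent tdTomato reporter. All mice had tamoxifen at 75 mg/kg per day from postnatal day (P) 20, an AAV injection into the eye at P28, and were taken at P51. Control eyes received AAV7m8-GFAP-GFP-LacZsh. CCA (cell cycle activator) eyes received AAV7m8-GFAP-cyclinD1-p27sh, which adds cyclin D1 and knocks down p27Kip1, mixed 9 to 1 with the control virus. CCANT eyes received the CCA mixture, then NMDA, which injures inner retinal neurons, at P35 and Trichostatin A (TSA), a histone deacetylase inhibitor, at P37. The GFAP promoter drives these transgenes in MG, and per the study's methods tissue with strong GFP from the virus was cut out before the sort on tdTomato, so the cells came from well infected areas but were not each chosen for the virus. CCANT eyes had both NMDA and TSA, so their parts in a CCANT value cannot be told apart, and no library had them without CCA.

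Counts of 3758 control, 3890 CCA and 3278 CCANT cells were used, with medians of 24236, 20711 and 20722 UMIs per cell. The 9 MG markers summed to 26388, 26952 and 28694 UMIs per 1000000 (CPM), in cells that the study had already filtered for MG and rods. Rod markers summed to 409 (control), 1205 (CCA) and 2280 CPM (CCANT), and their part in the values below was not tested beyond leaving out rod-rich cells. Rod-rich cells, with over 5000 CPM of rod markers, were 0.852% of control, 5.60% of CCA and 11.6% of CCANT cells. They are included where all kept cells of a library are called MG below. The control cells carried Y-linked transcripts and the CCA cells carried Xist, while the CCANT library held both kinds, so sex moves with the comparison of CCA and control. With 1 library per group there is no replicate and no test. Intervals are at the 95% level, exact Poisson for ratios and Clopper-Pearson for shares, and reflect counting error alone, not differences between mice. The Poisson intervals take UMIs as independent, so they also leave out differences between the cells of a library. Level means the summed UMIs of a gene per 1000000 UMIs of all genes in the library, in CPM. Shares of cells with a gene were computed at a depth of 8000 UMIs drawn at random from each cell, and 36 control cells, 103 CCA cells and 53 CCANT cells fell short of it.

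Genes of this kind often carry 2 short promoter elements, the cell cycle genes homology region (CHR element, TTTGAA) bound by the MuvB complexes, and the CCAAT box (CCAAT) bound by NF-Y. These letters were searched on both strands of RefSeq promoter windows of 300 bases on build GRCm38.p6, from 250 bases before the transcription start to 50 after it. Windows were found for 43 of the 49 members, 49 windows in all, because 6 genes have 2 starts. Cdc25c, Smc4, Dlgap5, Cdca2, Tpx2 and Aurkb had no entry. TTTGAA occurred in 69.4% of the member windows and in 17.9% of all 32851 windows of this length, and CCAAT in 77.6% against 37.4%. Both occurred in 57.1% of the member windows and in 6.95% of all windows. The 2 motifs overlapped in 1 place among the member windows. TTTGAA lay near the start, with 71.1% of its matches within 50 bases of it, while the median CCAAT match began at position -66.5, counted from the start. A match is a description of these letters, not of binding.

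The windows of the 4 members with the largest ratio of CCA over control and of the 2 with the smallest are shown, among members with 1 window and with all control cells included, so that both ends of the response can be read side by side. They are written 5′ to 3′ along the gene, with matches of either motif, on either strand, in capitals. On the opposite strand the CHR element reads TTCAAA. The CCAAT box reads ATTGG there.
Cenpf, chr1:189688037-189688336, minus strand: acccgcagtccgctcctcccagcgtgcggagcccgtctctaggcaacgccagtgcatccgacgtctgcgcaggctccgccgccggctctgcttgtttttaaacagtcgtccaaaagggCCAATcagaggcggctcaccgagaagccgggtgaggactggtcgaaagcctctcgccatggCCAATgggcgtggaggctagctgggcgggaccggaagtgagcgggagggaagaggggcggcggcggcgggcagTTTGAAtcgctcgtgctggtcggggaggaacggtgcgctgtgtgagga
Hmmr, chr11:40733388-40733687, minus strand: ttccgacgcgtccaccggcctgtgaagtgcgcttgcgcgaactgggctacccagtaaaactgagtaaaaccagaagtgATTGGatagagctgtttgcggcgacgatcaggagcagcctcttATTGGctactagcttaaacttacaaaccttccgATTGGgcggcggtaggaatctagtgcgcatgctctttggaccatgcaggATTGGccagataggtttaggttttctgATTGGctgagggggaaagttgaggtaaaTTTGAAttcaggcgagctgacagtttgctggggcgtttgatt
Nek2, chr1:191821223-191821522, plus strand: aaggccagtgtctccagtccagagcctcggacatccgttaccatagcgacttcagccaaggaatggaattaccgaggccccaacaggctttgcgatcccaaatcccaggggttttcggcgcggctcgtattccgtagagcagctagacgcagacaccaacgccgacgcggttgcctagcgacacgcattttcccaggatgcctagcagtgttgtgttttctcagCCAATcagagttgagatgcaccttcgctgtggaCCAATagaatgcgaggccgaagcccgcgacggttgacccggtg
Kif23, chr9:61946750-61947049, minus strand: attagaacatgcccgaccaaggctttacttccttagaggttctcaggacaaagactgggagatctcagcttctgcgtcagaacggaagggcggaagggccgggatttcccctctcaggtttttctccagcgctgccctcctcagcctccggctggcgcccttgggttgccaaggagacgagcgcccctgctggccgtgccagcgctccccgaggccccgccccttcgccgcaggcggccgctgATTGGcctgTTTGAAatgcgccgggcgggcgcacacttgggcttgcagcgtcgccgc
Anp32e, chr3:95929007-95929306, plus strand: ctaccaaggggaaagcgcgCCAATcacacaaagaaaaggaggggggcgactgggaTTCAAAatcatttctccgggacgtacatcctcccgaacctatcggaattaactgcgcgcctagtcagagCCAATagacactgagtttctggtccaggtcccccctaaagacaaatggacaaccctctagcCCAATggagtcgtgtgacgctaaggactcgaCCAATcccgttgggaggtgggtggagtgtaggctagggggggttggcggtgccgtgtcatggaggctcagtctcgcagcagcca
Ckap5, chr2:91526512-91526811, plus strand: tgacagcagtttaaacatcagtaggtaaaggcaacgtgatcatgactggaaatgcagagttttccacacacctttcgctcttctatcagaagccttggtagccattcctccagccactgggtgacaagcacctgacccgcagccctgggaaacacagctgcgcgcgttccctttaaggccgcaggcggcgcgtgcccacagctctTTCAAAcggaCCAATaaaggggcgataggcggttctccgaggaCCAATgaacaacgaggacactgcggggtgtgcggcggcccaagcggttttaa
The windows of Anp32e and Ckap5, which were under 2-fold in both libraries, hold both motifs, and that of Nek2 holds CCAAT but not TTTGAA. Among the members at least 2-fold higher in CCA, 70% of 40 windows held TTTGAA and 80% held CCAAT. Among the 7 members under 2-fold, 66.7% of 9 windows held each. Both motifs were held by 60% of the former windows and 44.4% of the latter. With 9 windows these shares are a description only.

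Most of the genes were far higher in CCA than in control MG. At least 2-fold higher levels were found for 42 of 49 (85.7%), against 6.34% of the 18327 genes with enough UMIs. The median ratio was 24.6, or 4.62 on the log2 scale, where the median over all genes was 0.07. In CCANT, 40 of 49 were at least 2-fold above control, against 6.21% of all genes, with a median ratio of 9.27. CCANT lay below CCA for all 49, by at least 2-fold for 31, against 2.62% of all genes, and the median ratio of CCANT over CCA was 0.411. CCA and CCANT are compared with the same control library. Summed over the members, the level was 834 (control), 1957 (CCA) and 1199 CPM (CCANT). The sum is dominated by a few genes that control MG also express, so its ratio of 2.35 (95% interval 2.33 to 2.37) in CCA over control is far below the median of the single genes.

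**Figure D1:**
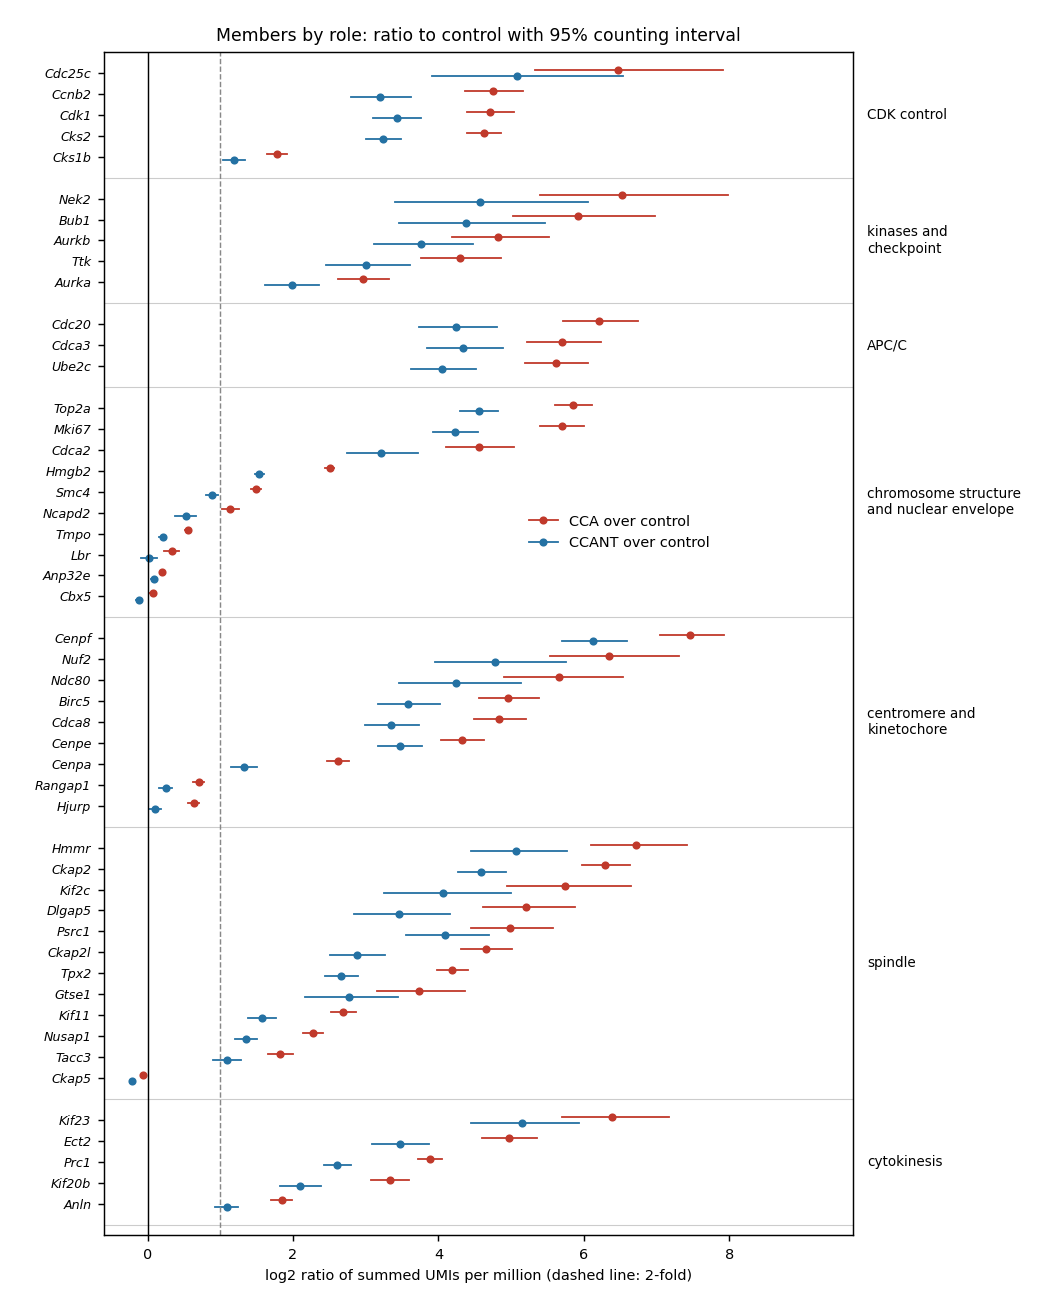
Log2 ratio of each member's level (summed UMIs, in CPM) over control, for CCA (red) and CCANT (blue), with bars for the 95% Poisson counting interval and genes grouped by role; the dashed line marks 2-fold. The CCA point lies to the right of the CCANT point for every member, and 7 members lie left of the dashed line in CCA.

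Part of the control UMIs came from 2 cells with immune markers and few MG markers. Only 2 of 3722 control cells held 10 or more members, with 43 and 45 of them. These 2 cells held 33 UMIs of the 9 MG markers and 110 UMIs of 5 T and NK cell markers, including 41 of Cd3g and 34 of Nkg7. Of the microglia and macrophage list they held 42 UMIs of Ptprc and 7 of Cx3cr1, and its markers C1qa, C1qb and C1qc were at 0. They supplied over 50% of the control UMIs of 9 members, for instance 112 of the 132 UMIs of Top2a, 33 of the 45 of Cenpf and all 6 of Nek2. Without them the ratio of CCA over control was 382 (247 to 626) rather than 57.9 for Top2a and 663 (379 to 1283) rather than 177 for Cenpf, and for Mki67 it was 195 (132 to 302) rather than 51.9. Only these 2 control cells were left out, and CCA kept all its cells, those rich in members included. A higher ratio for members concentrated in the 2 cells thus follows from the choice. The count of members at least 2-fold higher was again 42. No control cell without immune markers, 0 of 3719, reached 10 members, and a limit of 3 counts puts the share at up to 0.0807%. The ratios over control given below include the 2 cells.

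Genes that start mitosis were higher in both treated libraries than in control. Cks2, a small subunit that binds CDKs, stood at 1.69 (control), 41.5 (CCA) and 15.9 CPM (CCANT), and was found in 1.42%, 7.76% and 4.53% of cells. For Cdk1, the mitotic kinase itself, the levels were 0.901, 23.6 and 9.67 CPM and the shares 0.376%, 5.81% and 3.07%. Cks1b, the other CDK subunit, was the least different of the group, with 5.94, 20.4 and 13.6 CPM and shares of 4.51%, 9.85% and 8.09%. Its ratio of CCA over control was 3.43 (3.12 to 3.78), while that of Cdk1 was 26.1 (21.1 to 32.8). Ccnb2, a B-type cyclin that activates CDK1, was 26.9-fold higher in CCA, and Cdc25c, a phosphatase that activates it, 88.3-fold, from 6 UMIs in control to 462. All 5 genes were at least 2-fold higher than control in both libraries, and 4 of 5 at least 2-fold lower in CCANT than in CCA, Cks1b being the exception at 0.665.

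Mitotic kinases differed as widely between the libraries. Aurka, which acts at the spindle poles, differed least of the 5, at 0.849 (control), 6.62 (CCA) and 3.35 CPM (CCANT), with shares of 0.725%, 2.72% and 1.27%. Aurkb, the kinase of the chromosomal passenger complex, was at 0.220, 6.20 and 2.98 CPM and in 0.107%, 1.58% and 1.05% of cells. Ttk, the kinase that starts the spindle checkpoint, was at 0.325, 6.35 and 2.61 CPM and in 0.269%, 2.40% and 1.12%. The CCA shares of the 3 kinases lay above those of amacrine-marked cells, which serve below as a background. The intervals of the CCANT shares overlapped those of that background. Bub1, another checkpoint kinase, was 60.3-fold higher in CCA than in control. Nek2, a centrosomal kinase, went from 0.0629 CPM in control to 5.80 in CCA and back to 1.497 in CCANT, and was found in 0.0269%, 2.11% and 0.403% of cells. Its CCANT over CCA ratio of 0.258 (0.207 to 0.319) was among the 2 lowest of all members.

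The other of those 2 was Cdc20, the activator of the APC/C that triggers anaphase, at 0.258 (0.233 to 0.285). It stood at 0.346 (control), 25.5 (CCA) and 6.57 CPM (CCANT), in 0.215%, 4.57% and 1.64% of cells. Ube2c, the ubiquitin-conjugating enzyme that works with the APC/C, was at 0.492, 24.1 and 8.18 CPM and in 0.107%, 3.51% and 0.992% of cells. Cdca3, known as a trigger of mitotic entry, was at 0.356, 18.6 and 7.21 CPM and in 0.188%, 4.01% and 1.74%. Ratios over control for the 3 ran from 49.0 to 73.7 in CCA and from 16.6 to 20.3 in CCANT, and all 3 were more than 2-fold lower in CCANT than in CCA.

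Genes for chromosome structure and the nuclear envelope split, with 6 of 10 at least 2-fold higher in CCA and 4 of 10 in CCANT. Top2a, the topoisomerase that untangles sister chromatids, was at 1.38 (control), 80.1 (CCA) and 32.5 CPM (CCANT). Mki67, which coats mitotic chromosomes and is the usual marker of cycling cells, was 51.9-fold higher in CCA and 18.8-fold higher in CCANT, and Cdca2, which targets a phosphatase to chromatin, 23.5-fold and 9.27-fold. Hmgb2, a chromatin protein that many resting cells also make, was at 30.9, 175 and 89.6 CPM and in 19.6%, 38.2% and 31.1% of cells. The condensin subunits differed less. Smc4 was 2.81-fold (2.68 to 2.96) and Ncapd2 2.20-fold (2.02 to 2.40) higher in CCA, and in CCANT both were under 2-fold, at 1.85 and 1.44. Ncapd2 overlaps the gene model Gm28967 on the same strand, so its UMIs may be shared with it.

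The other 4 genes of this group were under 2-fold in both libraries. Anp32e, a histone chaperone, stood at 162 (control), 187 (CCA) and 172 CPM (CCANT), in 72.4%, 73.4% and 70.8% of cells, and its CCANT over CCA ratio of 0.924 (0.902 to 0.946) was the highest of all members. Cbx5, the heterochromatin protein HP1 alpha, was at 138, 144 and 127 CPM and in 64.7%, 63.8% and 60.9%. Tmpo, a lamina-associated protein, was at 73.8, 108 and 85.3 CPM and in 43.5%, 48.3% and 44.7%. The shares of control MG with these 3 genes were close to those of CCA MG. Lbr, the lamin B receptor, was at 16.4, 20.6 and 16.6 CPM and in 11.6%, 13.1% and 11.7% of cells, and for CCANT over control its interval of 0.939 to 1.09 includes 1.

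With all control cells included, the kinetochore genes held the largest ratio of the list. Cenpf, a large kinetochore and nuclear matrix protein made in G2, was at 0.471 (control), 83.3 (CCA) and 33.0 CPM (CCANT), and in 0.161%, 6.28% and 2.85% of cells. The outer kinetochore partners Nuf2 and Ndc80 were 81.4-fold and 50.7-fold higher in CCA. Birc5 (survivin) and Cdca8 (borealin), subunits of the chromosomal passenger complex with Aurkb, were 31.1-fold and 28.6-fold higher, beside Aurkb at 28.2-fold. Without the 2 immune-marked control cells, and with CCA left whole, the ratios were 70.2 for Birc5, 36.5 for Cdca8 and 65.7 for Aurkb. Cenpe, the kinetochore motor, was 20.1-fold higher in CCA and 11.0-fold in CCANT, and its CCANT over CCA ratio of 0.549 was the only one above 0.5 among the 7 genes of this group that were at least 2-fold higher in CCA. Cenpa, the centromeric histone variant, which resting cells also need, was 6.13-fold higher in CCA. Hjurp, the chaperone of Cenpa, was at 29.3, 45.4 and 31.5 CPM and in 19.9%, 23.9% and 20% of cells, and Rangap1, a regulator of Ran at the kinetochore and the nuclear pore, at 22.9, 37.3 and 27.3 CPM and in 16.4%, 19.5% and 16.1%. Neither reached 2-fold in CCA, with ratios of 1.55 and 1.63.

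Of the 12 spindle genes, 11 were at least 2-fold higher in both libraries. Ckap2, a microtubule stabiliser, was at 0.849 (control), 66.7 (CCA) and 20.4 CPM (CCANT), and in 0.564%, 10.4% and 5.33% of cells. Tpx2, the activator of Aurka on the spindle, was at 2.03, 37.1 and 12.9 CPM and in 1.34%, 6.79% and 3.10%. Hmmr, a spindle protein and hyaluronan receptor, was 105-fold (68.7 to 171) higher in CCA with all control cells included. The ratios of CCA over control were 53.3 for the depolymerising kinesin Kif2c, 36.9 for the spindle assembly factor Dlgap5, 31.6 for the kinesin regulator Psrc1, 25.2 for Ckap2l, 13.3 for Gtse1, a microtubule-tip protein, 6.45 for the bipolar-spindle motor Kif11, 4.85 for Nusap1, which bundles microtubules, and 3.54 for Tacc3. The exception was Ckap5, the microtubule polymerase that binds Tacc3, at 278, 265 and 240 CPM and in 88.0%, 83.5% and 82.4% of cells. It was the only member below control in CCA, at 0.954 (0.937 to 0.971), and in CCANT it was at 0.864 (0.848 to 0.881).

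Genes of the last step, cytokinesis, closed the same pattern. Prc1, which bundles the midzone microtubules, was at 3.28 (control), 48.3 (CCA) and 20.02 CPM (CCANT), and in 2.58%, 7.21% and 4% of cells. Anln, the scaffold of the contractile ring, was at 5.58, 20.03 and 11.9 CPM and in 3.98%, 9.29% and 5.83%, and it overlaps the gene model Gm48646 on the same strand. Ect2, the exchange factor that activates RhoA at the cleavage site, was at 0.639, 20.02 and 7.06 CPM and in 0.322%, 4.78% and 1.92%. Kif23, its partner in the midzone, was 83.6-fold higher in CCA, and the midzone kinesin Kif20b 10.1-fold. All 5 were at least 2-fold above control in both libraries.

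Some of these shares must be read against RNA that is free in the droplets. Cells with amacrine markers outside the kept cells, neurons that do not divide, were thinned to the same 8000 UMIs. They were 614 control, 772 CCA and 601 CCANT cells with medians of 22930, 21664 and 21360 UMIs, of which 569, 740 and 586 reached that depth. Cenpf was found in 1.62% of those of the CCA library and in none of those of the control, where a limit of 3 counts allows up to 0.527%. In the CCA library the interval of the MG share lay wholly above that of the amacrine-marked cells for 42 of 49 members, all but Anp32e, Cbx5, Cdc25c, Cenpe, Hjurp, Lbr and Rangap1. In CCANT this held for 14 members and in control for 8, among them Hmgb2, Tmpo, Smc4 and Kif11 in both. How many of all genes pass this was not counted, so the counts do not set the members apart from other genes. For members outside these counts the interval of the share does not lie wholly above that of the amacrine-marked cells at this depth. In control, Rangap1 was in 37.1% of the amacrine-marked cells and 16.4% of MG, and Cbx5 in 78.0% and 64.7%. Free RNA was not told apart from transcripts of these neurons' own. Of the amacrine-marked cells, 0 in control, 2 in CCA and 1 in CCANT held 10 or more members, and the MG markers of the 2 CCA cells had a median of 3200 CPM against 1116 in the rest.

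A small share of the cells of CCA and CCANT held many members at once. A typical control cell held 4 members, a CCA cell 5 and a CCANT cell 4, mostly from the 9 members found in at least 1 in 10 control cells. Cells with 10 or more members were 238 of 3787 (6.28%, 5.53 to 7.11) in CCA and 72 of 3225 (2.23%, 1.75 to 2.80) in CCANT, against the 2 immune-marked cells of 3722 in control. This is a range rather than a cell type: 46 CCA cells held 10 or 11 members and 176 held 8 or 9. The shares also rest on the depth, and without thinning they were 6.68% in control, 24.6% in CCA and 15.2% in CCANT. Among the 238 CCA cells, 109 held 10 to 19 members, 27 held 20 to 29, 33 held 30 to 39 and 69 held 40 or more, so the counts were fewest in the middle. In CCANT the same classes held 33, 9, 15 and 15 cells. The highest number was 48 of 49 in CCA and 47 in CCANT.

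**Figure D2:**
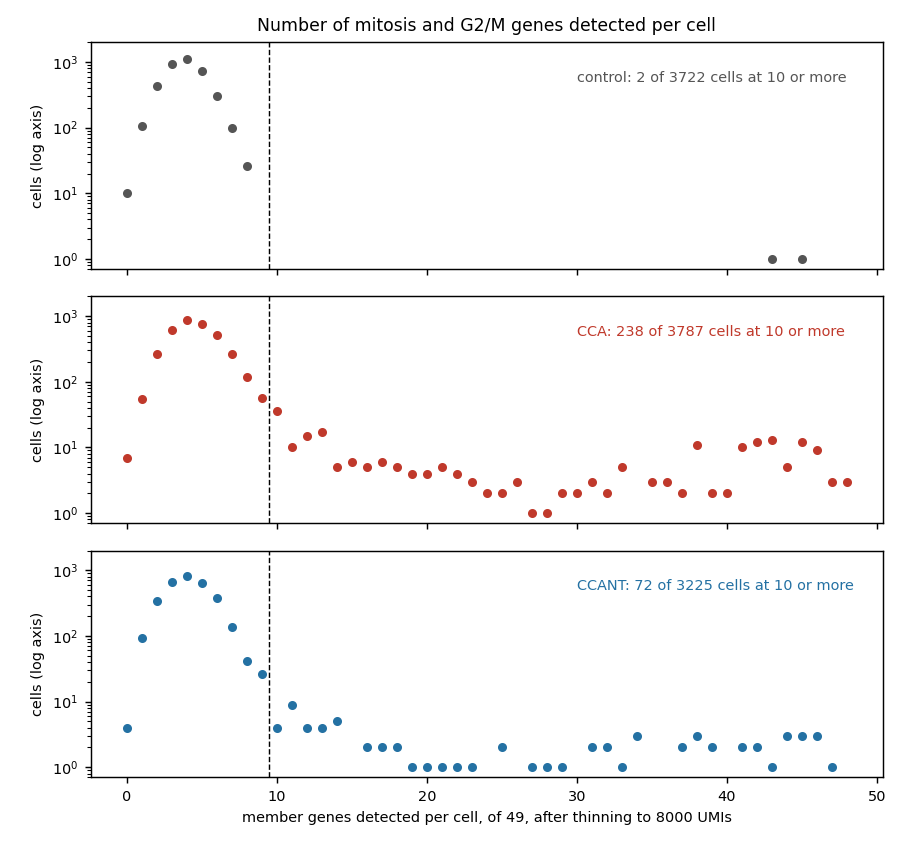
Number of cells (log axis) by the number of members detected after thinning each cell to 8000 UMIs, for control, CCA and CCANT; the dashed line marks 10 members, and numbers of members with no cell have no point. The control points end at 8 apart from 2 cells at 43 and 45, while CCA and CCANT have a tail that reaches 48 and 47.

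These cells carried MG markers. The study had already left out tdTomato-negative cells, called doublets and clusters other than MG and rods, so this partly follows from that choice. In the CCA cells with 10 or more members the median sum of MG markers was 12772 CPM and the lowest value 4246, against a median of 28028 in the other CCA cells. In CCANT the medians were 16195 and 29355. Glul, the glutamine synthetase of MG, was at 0.388 (0.382 to 0.395) of its level in the other cells in CCA and at 0.334 (0.323 to 0.345) in CCANT. Microglia markers had medians of 44.0 CPM in these cells and 39.1 in the others in CCA, and no cell of either library with 10 or more members reached 500 CPM. Their median UMI totals were 24443 in CCA and 26087 in CCANT, against 20788 and 20751 in the other cells, and the part of larger totals or of doublets in the result was not tested beyond leaving out cells over 40000 UMIs. Cdkn1b, which encodes p27Kip1, did not separate the cells in CCA, at 83.8 CPM in those with 10 or more members and 84.0 in the others, where control stood at 226, and in CCANT it was at 0.755 (0.641 to 0.883) of its level in the others. Ccnd1, which encodes cyclin D1, was at 189 CPM in these cells and 132 in the others in CCA, and at 200 and 127 in CCANT, with ratios of 1.43 (1.34 to 1.52) and 1.57 (1.42 to 1.74). All 4 levels were below that of the control library, 213 CPM. Whether these UMIs include transcripts of the vector was not tested.

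To see how far each gene depended on these cells, its level was taken in cells with 10 or more of the other 48 members, so that the gene did not choose its own cells. In CCA such cells held over 50% of the UMIs of 41 members and over 90% for 24, from 13.0% for Ckap5 to 97.2% for Cdc25c. Cenpf stood at 1088 CPM in them and 4.01 in the other cells, Top2a at 1062 and 6.40, and Ube2c at 312 and 1.27. Ckap5 and Cbx5 were also higher in them, but by 2.15-fold and 2.20-fold. Hmgb2 had 66.3% of its UMIs there and was also in 34.9% of the other cells. Psrc1 was intermediate, with 55.6% of its UMIs there. In CCANT, where the cells were fewer, 35 members had over 50% of their UMIs in them. How many of all genes pass these cuts was not counted, so the counts have no background.

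Within these cells the difference between CCANT and CCA was smaller for most members than over all cells. No member differed by 2-fold, and as 2.51% of all genes with at least 50 UMIs in these cells did, that count is near the background. Intervals of CCANT over CCA lay wholly below equality for 22 members and above it for 3, and held it for 24. These counts were not made over all genes. Cells of both libraries were chosen by the same cut on the members, which are detected together, so the cut itself can bring their levels closer. Whether the level per cell was the same in the 2 libraries cannot be read from this comparison. In the other cells the median log2 of CCANT over CCA was -0.51, with 16 members at least 2-fold lower, against 2% of all genes, and none higher. In the cells with 10 or more of the other members, the level in CCANT over that in CCA had a median log2 of -0.10 over the members, from -0.67 for Nek2 to 0.52 for Cenpe. Cenpf was at 1088 CPM in CCA and 1099 in CCANT, and Top2a at 1062 and 1064. Cdc20 was at 317 and 200 CPM and Ckap2 at 792 and 528, and with Nek2 these were the 3 lowest ratios. Over all cells the median log2 of the same ratio was -1.28. The values come from 1 library each, so a difference between mice is part of them.

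**Figure D3:**
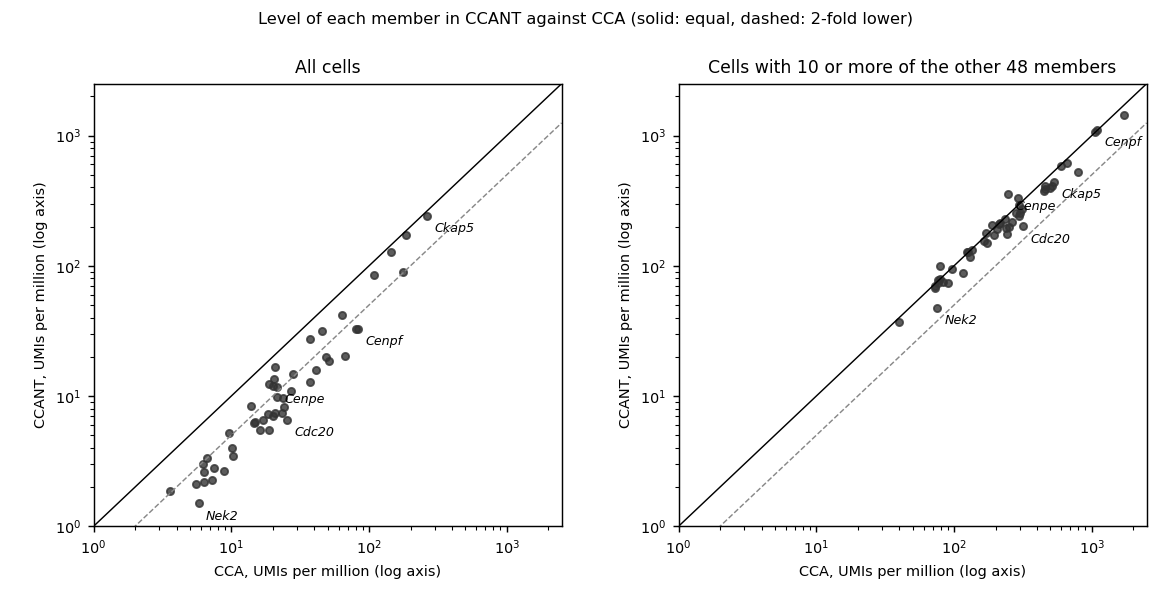
Level of each member (CPM, log axes) in CCANT against CCA, over all cells on the left and over cells with 10 or more of the other 48 members on the right; the solid line marks equal levels and the dashed line CCANT 2-fold below CCA. On the left 31 members lie on or under the dashed line, and on the right none does. The cells on the right were chosen by the same cut in both libraries, which can bring the levels closer.

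Many pairs of members were found together in the same cells more often than independent detection gives. Of 1176 pairs in CCA, 953 would be found together in at least 5 cells if detection were independent, and 724 of these were seen at least 2 times as often as that. Birc5 and Hmmr were both detected in 105 cells where independence gives 5.46, a ratio of 19.2, out of 152 cells with Birc5 and 136 with Hmmr. That was the highest ratio among the pairs with at least 5 cells expected. The next of those pairs were Nuf2 and Cdca3 (95 cells, ratio 18.6), Cdca3 and Hmmr (99 cells, 18.1), Birc5 and Nuf2 (92 cells, 18.0) and Cdca3 and Kif23 (94 cells, 17.2). In CCANT, 443 pairs had at least 5 cells expected and 201 of these were seen at least 2 times as often as that. With fewer such cells, that minimum leaves out more pairs of the rarer genes than in CCA, so the counts of the 2 libraries are not over the same pairs. The 5 pairs named above fell short of the minimum in CCANT and shared 31, 25, 32, 25 and 31 cells there, where independence gives under 1 cell each, ratios of 34.3 to 48.9. At the other end were pairs of the broad genes, with ratios of 1.00 for Anp32e and Cbx5, 1.01 for Anp32e and Ckap5, Tmpo and Ckap5, Hmgb2 and Ckap5, and Hjurp and Ckap5. Genes found in few cells can reach higher ratios than genes found in many, so the ratios are not a ranking. Bub1 had the largest share of its CCA cells with 5 or more other members, 97.7%, and Ckap5 the smallest, 34.998%. Cells of 1 library share their source, and these values are descriptions. Pairs of genes outside the list were not counted, so the counts of pairs have no background.

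**Figure D4:**
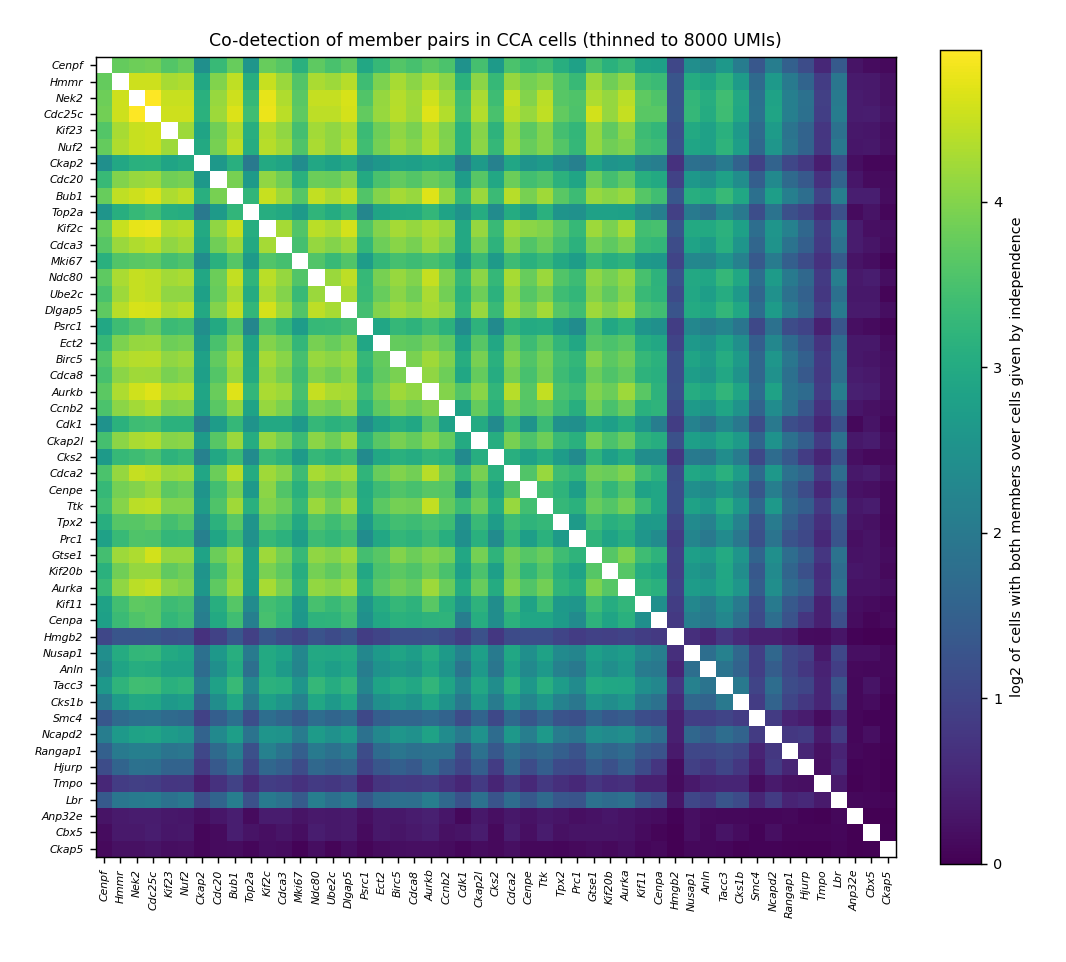
Co-detection of each pair of members in CCA cells thinned to 8000 UMIs, as log2 of the cells with both members over the number given by independence, with genes ordered by their CCA over control ratio. Pairs among the genes with the largest ratios are bright, and the rows of Ckap5, Cbx5, Anp32e and Tmpo are dark.

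Outside the cells with 10 or more of the other members the ratios were smaller. The median ratio of CCA over control there was 2.69 over 48 members, Nek2 being at 0 UMIs in control, 30 were at least 2-fold higher, against 5% of all genes in the cells with fewer than 10 members. For CCANT over control the median was 1.73, with 21 at least 2-fold higher, against 5.54% of all genes. Cells were also taken that had fewer than 8 of the other members, fewer than 8 S phase genes and no immune markers, a class chosen after the data had been seen. In them the median ratio of CCA over control was 1.93 over the 41 members with at least 50 UMIs in both libraries together, and 19 were at least 2-fold higher, against 3.85% of all genes with that minimum. The other 8 members had too few UMIs there, so this median is not over the same genes as the 2.69 and 24.6 above. Members scarce in control could pass the minimum through CCA alone, such as Ube2c with 10 UMIs in control and 87 in CCA. Cenpf was at 29.0-fold (16.3 to 56.9), Top2a at 22.2-fold (14.2 to 36.9) and Psrc1 at 13.9-fold (9.46 to 21.1). Amacrine-marked cells of the CCA library were set beside them as a background, in which free RNA and the neurons' own transcripts were not told apart. Cenpf was in 2.51% of these MG and in 1.62% of the amacrine-marked cells, and Psrc1 in 2.94% and 1.76%, shares that do not lie above the upper bound of the amacrine cells. Top2a, in 3.91% against 0.946%, Ckap2, in 6.55% against 1.76%, and Hmgb2, in 32.8% against 11.8%, did lie above it, as did 13 members in all. Among those 13, Ckap5 and Anp32e were not higher than in control MG. Here the share itself, not its interval, was set against the bound, so the 13 were counted by a looser rule than the 42 above. How many of all genes lie above the amacrine bound was not counted.

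**Figure D5:**
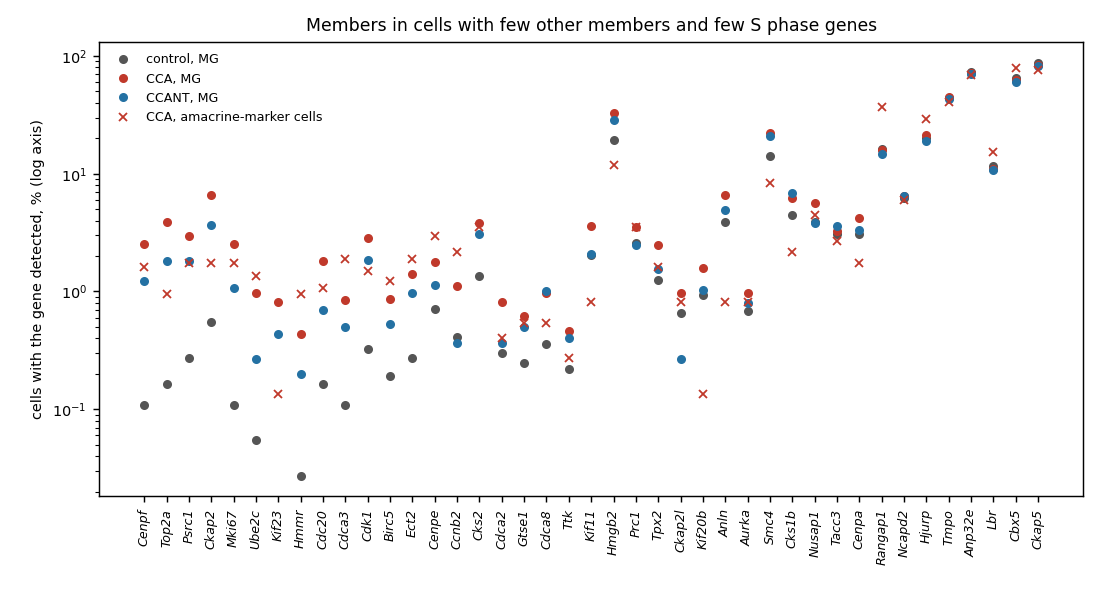
Share of cells (%, log axis) with each member detected, in MG with fewer than 8 other members and fewer than 8 S phase genes of control (grey), CCA (red) and CCANT (blue), and in amacrine-marked cells of the CCA library (red crosses), for the 41 members with at least 50 UMIs; a share of 0 has no point. Top2a and Ckap2 stand above the crosses in CCA, while Cenpf and Psrc1 stand close to them.

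S phase genes accompanied the members in part of the cells. The 42 S phase genes of a second list had a median of 9.5 detected in the CCA cells with 10 or more members and 3 in the others, and the medians were the same in CCANT. Of the 238 CCA cells, 119 also held 10 or more S phase genes, and 112 other CCA cells held 10 or more S phase genes with fewer than 10 members. Of the S phase list, 25 of 42 genes were at least 2-fold higher in CCA and 20 in CCANT, against 6.34% and 6.21% of all genes, and 12 were at least 2-fold lower in CCANT than in CCA, against 2.62%. The list was chosen with earlier results of these data known.

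Of 64 other mitosis genes outside the 49, 48 were at least 2-fold higher than control in CCA and 42 in CCANT, against 6.34% and 6.21% of all genes, and 31 were at least 2-fold lower in CCANT than in CCA, against 2.62%. Their median ratios were 7.55, 3.52 and 0.502, where those of the 49 were 24.6, 9.27 and 0.411, and the difference between the lists was not tested. These 64, like the members, were chosen with earlier results of these data known. The 3 with the most UMIs were not among those higher. Spc25, a kinetochore subunit and partner of Ndc80 and Nuf2, was at 1249.5 (control), 889 (CCA) and 553 CPM (CCANT), below control in both libraries where its partners were above it, and below CCA in CCANT as they were. Tubb4b, a tubulin, was at 258, 425 and 294 CPM, and Stmn1, which destabilises microtubules, at 254, 308 and 223. The 10 genes outside the list with the largest ratio between CCA cells with 10 or more members and the others, among those with at least 100 UMIs in the former, were Ska1, Depdc1a, Pif1, Cep55, Hist1h2af, Ncapg, Depdc1b, Troap, Hist1h3b and Neil3, with ratios from 427 for Ska1 to 241 for Neil3. Depdc1a, Cep55, Ncapg, Depdc1b and Troap belong to the 64. The ranking used the same cells as the choice, so it is a description. Hist1h2af and Hist1h3b encode replication-dependent histones and belong to families of near-identical copies, so their counts are uncertain.

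The CCANT library allowed its 2 kinds of mice to be set side by side. Its 1183 cells with Y-linked transcripts had a summed level of 1284 CPM, and 41 members were at least 2-fold above the control cells, which also carried Y-linked transcripts, against 7% of all genes. Its 1718 cells with Xist had a summed level of 1099 CPM, and 37 members were at least 2-fold below the CCA cells, which also carried Xist, against 4.04%. Cells with 10 or more members were 38 of 1174 (3.24%, 2.30 to 4.42) with Y-linked transcripts and 22 of 1689 (1.30%, 0.818 to 1.97) with Xist. The median ratio of Xist over Y-linked cells was 0.699, and Cdc25c, Cenpe and Cdca2 were at least 2-fold lower, at 0.272, 0.432 and 0.447, where 1.9% of all genes were. These cells had the same treatment in the same library, so this is a difference between mice or sexes of 1 treatment, which cannot be told apart.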

How the data were processed

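Droplet libraries (10x Genomics) of sorted tdTomato+ retinal cells were analysed, 1 per group. The authors deposited counts of UMIs per gene and barcode for each library, made per the submitters' processing notes with Cell Ranger 6.1.1 and, per the study's methods, with intronic reads on the mm10 genome to which tdTomato and GFP had been added. They also deposited a joint table of counts for 10926 cells kept after their quality control. Per the study's methods, this dropped tdTomato-negative cells, called doublets and clusters outside MG and rods. Intronic counting adds unspliced RNA to long genes. The paper gives another tamoxifen dose and start than the labels and names the control shRNA as non-target rather than LacZ; the labels are followed here. In the joint table the control cells had been thinned (a median of 93.1% of each cell's UMIs remained, against 99.9% in the others), so counts of its cells were taken from the library matrices, which held 95458516 (control), 83266870 (CCA) and 70825549 (CCANT) UMIs in them. Between 2 and 8 barcodes were shared by pairs of libraries. Doublets were not called again.

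Levels, ratios with exact 95% Poisson intervals and shares with Clopper-Pearson intervals were computed with Python 3.11.15, numpy 2.4.6 and scipy 1.17.1, and the ratio code was tested on simulated data. A count of 0 was read against a limit of 3 counts. No p-value was computed. Members and lists were chosen with earlier results of these data known. Members named in full were the 3 with the most UMIs in each role group, those under 2-fold in CCA, and the 2 highest and 2 lowest CCANT over CCA ratios among members with at least 50 UMIs in CCA. Genes were placed with GENCODE M21 on GRCm38, the build of mm10, and 47 of 49 members had no gene overlapping on the same strand. Amacrine-marked cells had passed the filters (at least 2000 features, at most 100000 UMIs, at most 15% mitochondrial UMIs), lay outside the joint table, and had at least 1000 CPM of amacrine markers, under 5000 of MG and under 1000 of bipolar markers (some genes of the amacrine list, Nrxn3 among them, were left out of its sum). Some list members are not reported here by name. Cells with at least 500 CPM of the microglia and macrophage list were called immune-marked. A cell was called Y-linked or Xist-bearing with at least 3 UMIs of 4 Y-linked genes or of Xist and at most 1 of the other. The marker lists for other classes (amacrine, bipolar, microglia and macrophage, T and NK cell, endothelial, pericyte and astrocyte) had sums of 2222, 111, 44.6, 2.15, 2215, 81.1 and 165 CPM in the control library, 1738, 140, 44.7, 0.348, 1837, 73.1 and 155 in CCA, and 1512, 179, 43.0, 0.297, 2122, 75.3 and 132 in CCANT.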

Additional observations from a re-analysis of the deposited data

Results flagged for a closer look

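Cells outside the joint table, of which the values above use only the amacrine-marked ones as a background, also held the list, above the level of the control library. In CCA, 263 of 5086 such cells past the filters held 10 or more members (5.17%, 95% interval 4.58 to 5.82), and in CCANT 111 of 6010 (1.85%, 1.52 to 2.22). In control, 19 of 4733 did (0.401%, 0.242 to 0.626). Of the 19 control cells, 17 had immune markers and 1 had MG markers (at least 3000 CPM, with few markers of other classes), while 220 of the 263 CCA cells and 84 of the 111 CCANT cells had MG markers. Cells with no tdTomato UMI numbered 17 in control, 120 in CCA and 71 in CCANT. Median UMI totals of the outside cells with 10 or more members were 27086 (control), 32663 (CCA) and 28669 (CCANT). In the remaining outside cells they were 21334, 18971 and 18346. The part of doublets, which the study had left out of the joint table, was not tested. Of the cells outside the joint table with MG markers, 13.9% in CCA, 3.39% in CCANT and 0.0445% in control held 10 or more members.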

How the results depend on the processing

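The counts of members past 2-fold ranged, over the alternatives tried, from 41 to 42 for CCA over control, from 36 to 41 for CCANT over control and from 28 to 37 for CCANT over CCA. Set against cells of the other kind, Y-linked CCANT cells had 24 members at least 2-fold below CCA. Xist CCANT cells had 38 at least 2-fold above control. The shares over all genes were not computed for these. No ratio reversed. The share of cells with 10 or more members moved with the depth and with the number asked for. Without thinning it was 6.68% in control, 24.6% in CCA and 15.2% in CCANT, and at 12000 UMIs 8.41% in CCA and 3.54% in CCANT. With 8 or more members it was 0.752%, 10.9% and 4.31%, and with 15 or more 4.09% in CCA and 1.43% in CCANT. Over the 40 members found in fewer than 1 in 10 control cells it was 3.83% in CCA and 1.43% in CCANT. Without cells with immune markers, an alternative added after seeing the data, it was 0% in control. Over all cells with MG markers and no tdTomato filter it was 8.54% in CCA.

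The summed level is given as log2 for CCA over control, CCANT over control and CCANT over CCA. It was 1.57, 0.68 and -0.88 over all cells with MG markers, 1.05, 0.37 and -0.67 as a mean over cells, 1.16, 0.49 and -0.67 with median-of-ratios scaling, 0.91, 0.37 and -0.54 without cells over 40000 UMIs, and 1.21, 0.55 and -0.65 without rod-rich cells. Without immune-marked cells it was 1.25 and 0.54 over control. With the Y-linked CCANT cells alone it was 0.62 over control, and with the Xist cells alone -0.83 over CCA. The cause of these moves was not tested. Of 1123 values of single members, 737 stayed within the counting interval and 386 moved, and none was counted as reversed. A ratio near 1, such as that of Lbr in CCANT over control, can still fall on either side of 1. Nek2 gave no ratio over control without the immune-marked cells or over all cells with MG markers, since its control UMIs were then 0. No paired analysis was possible because each group is 1 library. Depth limits members with few control UMIs, such as Nek2 and Cdc25c with 6 each.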
